A study of Mus musculus with 6 samples.

Results

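The nuclear lamina and the LINC complex were examined through 10 genes, Lmna, Lmnb1, Lmnb2, Lbr, Sun1, Sun2, Syne1, Syne2, Emd, and Tmpo, taken by symbol from the 21269 genes of a normalized count table. All 10 were present. All of them also averaged 5 or more over the 6 libraries, the minimum for testing, which 15650 genes reached. The table holds RNA-seq of HL-1 cells, an immortalized line of mouse atrial cardiomyocytes, after transfection with a gapmer, a DNA oligonucleotide flanked by locked nucleic acid (LNA) that leads RNase H to the RNA it is complementary to. The groups were LNA Control, a control gapmer, and LNA Malat1, a gapmer against the long noncoding RNA Malat1, with 3 libraries each. All cells were of the same line, were seeded 24 hours before transfection, received 50 nM of gapmer, and were collected 48 hours later. The comparison asks how the transcripts of this group of genes stood after the level of Malat1 was lowered.

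The lamina is a meshwork of intermediate filaments that lines the inner nuclear membrane. It is built from A-type lamins, both encoded by Lmna, and B-type lamins, encoded by Lmnb1 and Lmnb2. Membrane proteins such as the lamin B receptor (Lbr), emerin (Emd), and the LAP2 proteins (Tmpo) tie chromatin to it. In the LINC complex, SUN proteins of the inner membrane (Sun1, Sun2) reach across the perinuclear space and hold nesprins of the outer membrane (Syne1, Syne2), whose cytoplasmic parts bind the cytoskeleton. In striated muscle this link anchors and positions nuclei, and mutations in LMNA and EMD cause human muscular dystrophy and heart disease.

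The normalized counts are reads on the exons of a gene divided by one factor per library and rounded, and they summed to between 4758777 and 4921406 per library. Malat1 itself stood at 5051, 5197, and 4369 after LNA Control and at 2833, 2792, and 2732 after LNA Malat1, with no overlap. LNA Malat1 replicates 1 and 3 differed by less than the sampling noise over the 14522 genes to which both together gave 20 or more reads (chi-square of 0.949 per gene), though by more than that over the 1754 genes with 1600 or more (1.114, chi-square p = 0.000541). LNA Malat1 replicates 1 and 2 were close to the noise as well (1.012, chi-square p = 0.149), but not over genes with 1600 or more (1.666). LNA Malat1 replicates 2 and 3 stood at 1.163 and 2.057. The LNA Control pairs differed more, at 1.768 to 4.179 and at 4.512 to 15.04. As a cautious choice, the average of LNA Malat1 replicates 1 and 3 entered each LNA Malat1 mean ± SD as a single sample (n = 2). Averaging can narrow that SD. The limma tests, with their SE and confidence intervals, and the permutation tests counted all 3 LNA Malat1 libraries unless a merged fit is named. Counted over genes, LNA Control replicates 1 and 3 stood furthest apart. Because the labels do not say that the replicates were separate cultures, p-values measure only the spread between these libraries, which may be technical. Of the atrial cardiomyocyte markers, Ttn (8524 to 16320), Ryr2, Gata4, Tnnt2, and Actc1 were well detected. Myl4 (30 to 49) and Myl7 (18 to 32) of the same list were low. Myh6, the alpha myosin heavy chain, stood at 0 to 7, and Nppa was not analysed here. Of the 10 tested, Ttn, Actn2, and Tnnt2 were higher and Gata4 was lower in LNA Malat1. The log2 fold change of Ttn was 0.66, and 0.54 to 0.8 with single libraries left out (adjusted p up to 0.0203 by limma). It was 0.00 under quantile normalization, which gives equal ranks equal values. That scaling cannot show a change of a gene that keeps its rank in every library. The call of Tnnt2 was lost under median-of-ratios scaling (adjusted p = 0.0692 by limma), with LNA Malat1 replicates 1 and 3 merged (0.0793), and when any 1 library but LNA Control replicate 3 was left out (up to 0.136). The 3 fibroblast markers analysed summed to 1953 to 2530 in LNA Control and 1824 to 1957 in LNA Malat1, almost all of it Col1a1, with Col1a2 at 0 or 1. The 3 leukocyte markers analysed summed to 17 to 28 and to 42 to 54, and the 3 endothelial markers to 22 to 31 and to 36 to 37. Cd68 and Cd79a, the 2 leukocyte markers tested, were higher, but under quantile normalization the limma adjusted p was 0.116 and 0.339. The call of Cd68 was also lost without LNA Control replicate 2 or any LNA Malat1 replicate (up to 0.104), and that of Cd79a when any 1 library was left out (up to 0.16). Ptprc and Adgre1 were not analysed here. The part of these marker levels in the results below was not tested.

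Lower transcript levels in LNA Malat1 were found for the giant nesprin Syne2, the lamin B receptor Lbr, and the LAP2 gene Tmpo, which stood at 75.0%, 80.0%, and 85.4% of LNA Control. Lmna and Syne1 also passed the test, at 91.1% and 87.4%, but only narrowly. With LNA Malat1 replicates 1 and 3 merged, neither passed (adjusted p = 0.123 and 0.116 by limma), and 3 of the 10 genes were lower. The B-type lamins Lmnb1 and Lmnb2, the SUN genes, and Emd did not pass. In bulk RNA, fewer cells that express a gene and less RNA per cell cannot be told apart. In all, 5 of the 10 genes were lower and 0 were higher with an adjusted p at or below 0.05, by limma on log2(normalized count + 1) with Benjamini-Hochberg adjustment over all genes tested. Over all genes tested, 14.0% were lower and 14.3% were higher. Among the 6905 genes that averaged 194.2 or more, the mean of the lowest of the 10, 22.6% were lower and 10.2% were higher. No gene of the 10 reached a fold change of 1.5. Of all genes, 2.92% were lower and 8.0% higher with both that fold change and that adjusted p, as were 2.68% and 0.941% of genes in that range of levels. At an unadjusted p under 0.05, 5 were lower and 0 higher, against 19.2% and 20.7% of all genes. The log2 fold change was negative for 9 of the 10, against 47.2% of all genes and 61.0% of genes in that range of levels. Its median was -0.13 over the 10 genes, 0.02 over all genes tested, and -0.05 over genes in that range. The median of the 10 was -0.09 with library totals set equal and -0.07 under quantile normalization. The groups did not overlap in 5 of the 10 genes, with LNA Malat1 below in each, which was so for 20.8% of all genes and 31.8% of genes in that range.

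**Figure D1:**
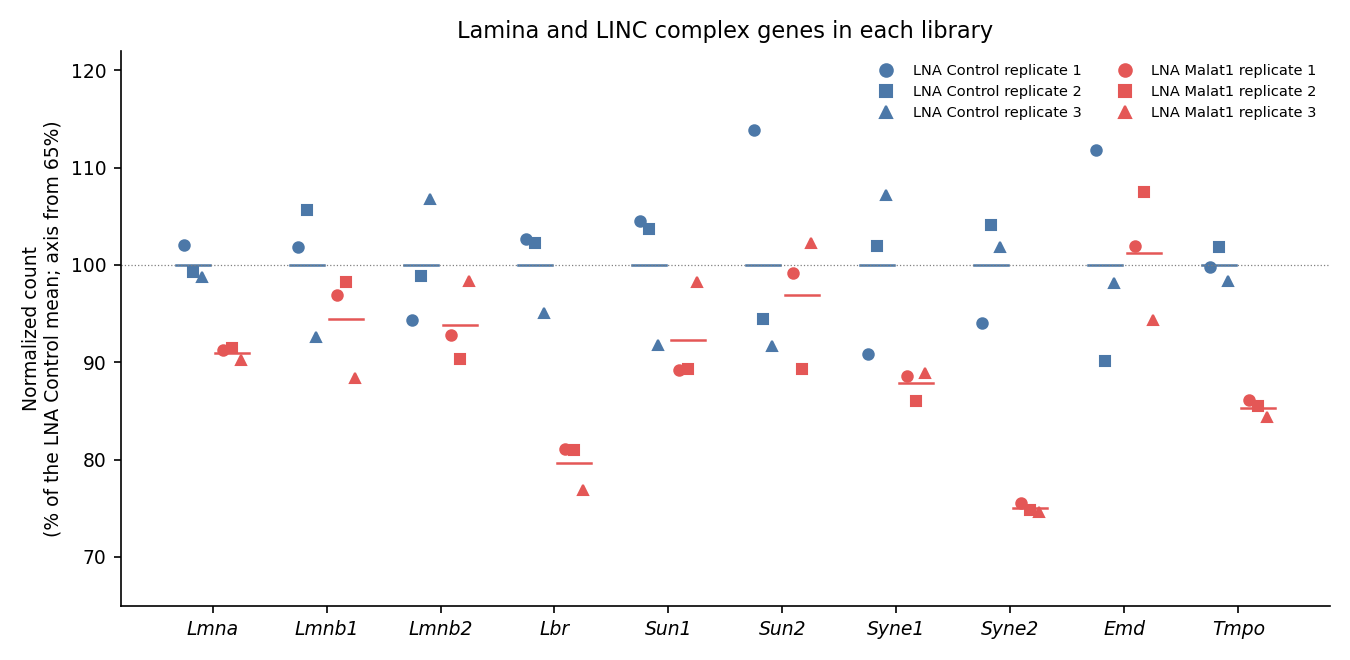
Normalized counts of the 10 genes in the 3 LNA Control and 3 LNA Malat1 libraries, as a percentage of the LNA Control mean of each gene, on a cut axis. Points are single libraries and horizontal lines are the means of 3 libraries. The groups are separate for Lmna, Lbr, Syne1, Syne2, and Tmpo, in each case with LNA Malat1 below, and overlap for the other 5 genes.

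**Figure D2:**
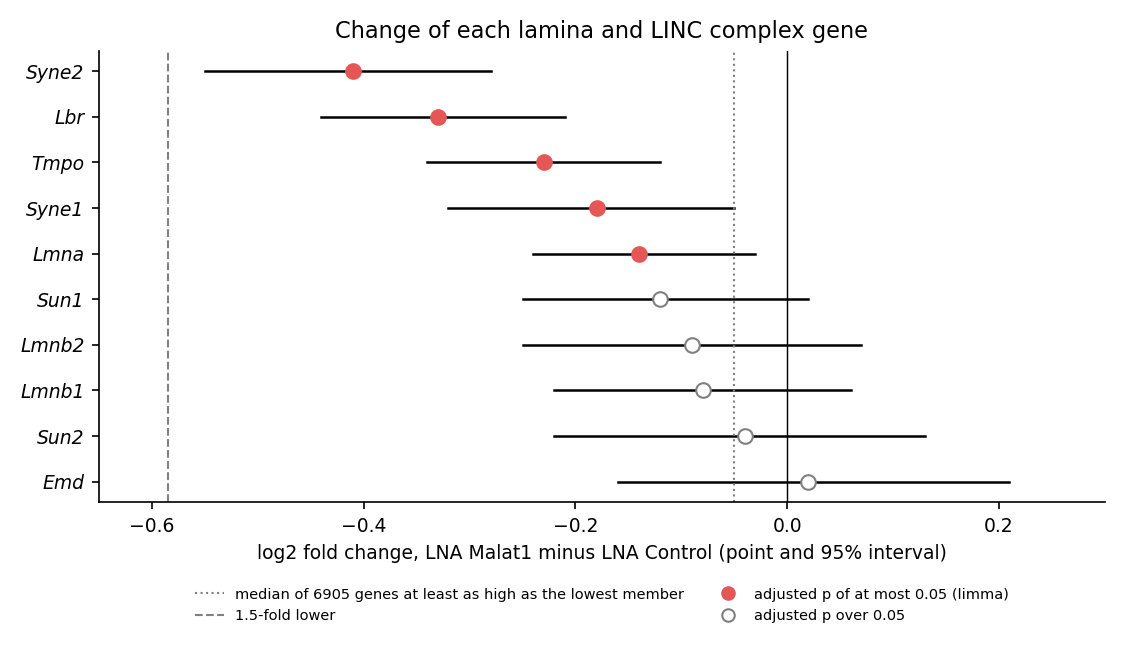
Log2 fold changes of the 10 genes in LNA Malat1 against LNA Control on the log2(normalized count + 1) scale, with 95% confidence intervals from limma. Syne2 lies lowest at -0.41 and Emd highest at 0.02, and the intervals of Syne2, Lbr, Tmpo, Syne1, and Lmna stay below 0.

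Syne2 encodes nesprin-2, which links the outer nuclear membrane to actin and to microtubule motors. It lies on the plus strand of chromosome 12 (mm10, 75818134 to 76110926) and had normalized counts of 4459, 4936, and 4826 in the LNA Control libraries and of 3581, 3548, and 3537 in those of LNA Malat1. The highest LNA Malat1 library lay 878 below the lowest LNA Control library, more than the 477 by which the LNA Control libraries differed among themselves. Means were 4740 ± 250 (SD, n = 3) and 3554 ± 7.8 (SD, n = 2). The log2 fold change was -0.41 (SE 0.06, 95% confidence interval -0.55 to -0.28, adjusted p = 0.000452 by limma). Syne2 had the highest normalized count of the 10 genes, and the difference passed the test in each of 15 alternative fits.

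Syne1 encodes nesprin-1, the other giant nesprin, which is abundant in striated muscle. It lies on the minus strand of chromosome 10 (mm10, 5020917 to 5551482) and had normalized counts of 1177, 1321, and 1388 in the LNA Control libraries and of 1147, 1114, and 1152 in those of LNA Malat1. The groups did not overlap, but the gap of 25 was small beside the range of 211 within LNA Control. The mean was 1295 ± 108 (SD, n = 3) against 1132 ± 25.1 (SD, n = 2), and the log2 fold change was -0.18 (SE 0.06, adjusted p = 0.0438 by limma). Syne1 did not pass in 9 of the 15 alternative fits. The limma adjusted p was 0.116 when LNA Malat1 replicates 1 and 3 were merged. It was 0.142 and 0.085 without LNA Control replicate 2 or 3, and 0.122, 0.148, and 0.114 without LNA Malat1 replicate 1, 2, or 3. Within each library the ratio of Syne1 to Syne2 was 0.26, 0.27, and 0.29 with LNA Control and 0.32, 0.31, and 0.33 with LNA Malat1. The ratio was thus higher in every LNA Malat1 library, by 17.3% (log2 difference 0.23), with an exact permutation p of 0.1 (two-sided, adjusted p = 0.3 over 6 ratios), the smallest p that 3 against 3 libraries can give.

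Lbr encodes the lamin B receptor, an inner nuclear membrane protein that holds heterochromatin and B-type lamins and also acts as a sterol reductase. It lies on the minus strand of chromosome 1 (mm10, 181815335 to 181843046). Its normalized counts were 935, 931, and 865 in the LNA Control libraries and 738, 737, and 700 in those of LNA Malat1. The groups were separated by 127, against a range of 70 within LNA Control. Means were 910 ± 39.3 (SD, n = 3) and 728 ± 12.7 (SD, n = 2), and the log2 fold change was -0.33 (SE 0.05, 95% confidence interval -0.44 to -0.21, adjusted p = 0.000675 by limma). It passed the test in all 15 alternative fits. Of its exonic bases, 9.24% are shared with Dnah14 on the opposite strand, and whether the counting used the strand is not given in the sources used here.

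Tmpo encodes the LAP2 proteins, LEM domain proteins of the inner nuclear membrane and, in the case of LAP2 alpha, of the nucleoplasm. It lies on the minus strand of chromosome 10 (mm10, 91147571 to 91181315). Its normalized counts were 2201, 2247, and 2170 in the LNA Control libraries and 1899, 1887, and 1861 in those of LNA Malat1, so that the gap of 271 was larger than the range of 77 within LNA Control. Means were 2206 ± 38.7 (SD, n = 3) and 1884 ± 4.9 (SD, n = 2). The log2 fold change was -0.23 (SE 0.05, 95% confidence interval -0.34 to -0.12, adjusted p = 0.0054 by limma), and it too passed in all 15 alternative fits. A count per gene does not separate the LAP2 proteins.

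Syne2, Lbr, and Tmpo moved lower together in every fit, and the 250 bases before their RefSeq starts (GRCm38.p6) are shown for this reason, 5′ to 3′ on the strand of the gene. Capitals mark CCAAT (the NF-Y box), TTTGAA (the cell cycle homology region), and GGGCGG (the GC box), searched on both strands, and a match on the other strand stands as its reverse complement.
Lbr, chr1:181842402-181842651, minus strand: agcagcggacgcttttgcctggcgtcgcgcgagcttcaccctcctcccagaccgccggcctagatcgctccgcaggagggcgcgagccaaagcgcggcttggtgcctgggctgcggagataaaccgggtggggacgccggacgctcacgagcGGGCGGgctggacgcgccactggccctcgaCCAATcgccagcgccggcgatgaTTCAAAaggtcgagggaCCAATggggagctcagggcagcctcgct
Tmpo, chr10:91171620-91171869, minus strand: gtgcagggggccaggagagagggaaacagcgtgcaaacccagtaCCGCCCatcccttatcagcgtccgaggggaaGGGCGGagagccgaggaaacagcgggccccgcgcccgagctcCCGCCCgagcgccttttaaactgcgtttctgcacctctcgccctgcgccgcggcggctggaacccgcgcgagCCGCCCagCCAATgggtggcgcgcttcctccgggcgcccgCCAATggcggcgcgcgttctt
Syne2, chr12:75818068-75818317, plus strand: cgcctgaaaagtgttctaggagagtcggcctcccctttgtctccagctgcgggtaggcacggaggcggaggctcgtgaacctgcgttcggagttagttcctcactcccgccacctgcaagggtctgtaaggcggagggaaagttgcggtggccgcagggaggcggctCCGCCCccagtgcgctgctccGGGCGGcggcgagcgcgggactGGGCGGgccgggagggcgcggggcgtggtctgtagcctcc
The Lbr window holds 2 CCAAT boxes, whose first bases lie 68 and 28 bases before the start, with a TTTGAA match at 45 bases between them. The Tmpo window holds 2 CCAAT boxes, at 53 and 21 bases, and no TTTGAA match, although the window of its second RefSeq start, chr10:91170551-91170800, holds 1. The Syne2 window holds neither motif. GC boxes number 1 in Lbr, 4 in Tmpo, and 3 in Syne2. Of 32851 RefSeq promoter windows, likewise searched over the 250 bases before the start, 33.8% hold CCAAT, 16.0% hold TTTGAA, 5.55% hold both, and 32.7% hold GGGCGG. The pair of CCAAT and TTTGAA also stood before Sun2, whose groups overlapped. CCAAT without TTTGAA stood before Sun1 (2 boxes at its first RefSeq start) and Emd (1 box), whose groups overlapped too. It also stood before the second RefSeq start of Lmna (1 box). RefSeq windows of 9 of the 10 genes were searched, and Lmnb1 was left out of this search.

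Lmna encodes lamins A and C, which the gene count does not separate. It lies on the minus strand of chromosome 3 (mm10, 88480147 to 88509956) and had normalized counts of 899, 875, and 870 in the LNA Control libraries and of 804, 806, and 795 in those of LNA Malat1. The groups were separated by 64, against a range of 29 within LNA Control. The difference was small, with means of 881 ± 15.5 (SD, n = 3) and 803 ± 4.6 (SD, n = 2) and a log2 fold change of -0.14 (SE 0.05, adjusted p = 0.0496 by limma), and it was lost in 9 of the 15 alternative fits. It shrank to -0.08 under quantile normalization (adjusted p = 0.18 by limma). The limma adjusted p was 0.0886 and 0.0967 without LNA Control replicate 1 or 2, and 0.131, 0.113, and 0.142 without LNA Malat1 replicate 1, 2, or 3.

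Lmnb1, on the plus strand of chromosome 18 (mm10, 56707813 to 56753424), encodes the B-type lamin that falls in senescent cells. It had normalized counts of 1115, 1157, and 1014 in the LNA Control libraries and of 1061, 1076, and 968 in those of LNA Malat1. Lmnb2, on the minus strand of chromosome 10 (mm10, 80901203 to 80918245), encodes the other B-type lamin and had 189, 198, and 214 against 186, 181, and 197. Both pairs of groups overlapped. The log2 fold change was -0.08 for Lmnb1 (95% confidence interval -0.22 to 0.06, adjusted p = 0.365 by limma) and -0.09 for Lmnb2 (95% confidence interval -0.25 to 0.07, adjusted p = 0.397 by limma), so decreases of the size found for Lbr lie outside both intervals, whereas one of the size found for Lmna does not.

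The balance among the lamins did not move beyond the spread between libraries. The ratio of Lmna to Lmnb1 counts was 0.81, 0.76, and 0.86 with LNA Control and 0.76, 0.75, and 0.82 with LNA Malat1. The ratios of Lmna to Lmnb2 (4.07 to 4.76 and 4.04 to 4.45) and of Lmnb1 to Lmnb2 (4.74 to 5.9 and 4.91 to 5.94) overlapped as well. Their exact permutation p-values were 0.6, 0.5, and 0.8. Per kilobase of merged exons, Lmna made up 25.4% to 27.5% of the summed lamin level over the 6 libraries, Lmnb1 63.2% to 66.8%, and Lmnb2 7.68% to 9.22%. These shares depend on the length used. Per kilobase of the longest coding transcript they were 37.3% to 39.8%, 51.5% to 55.2%, and 7.33% to 8.75%. The ratio of Lmna to Lbr, by contrast, was 0.96, 0.94, and 1.01 with LNA Control and 1.09, 1.09, and 1.14 with LNA Malat1. The groups did not overlap, and the ratio was 14.2% higher in LNA Malat1 (log2 difference 0.19, exact permutation p = 0.1, adjusted p = 0.3 over 6 ratios).

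**Figure D3:**
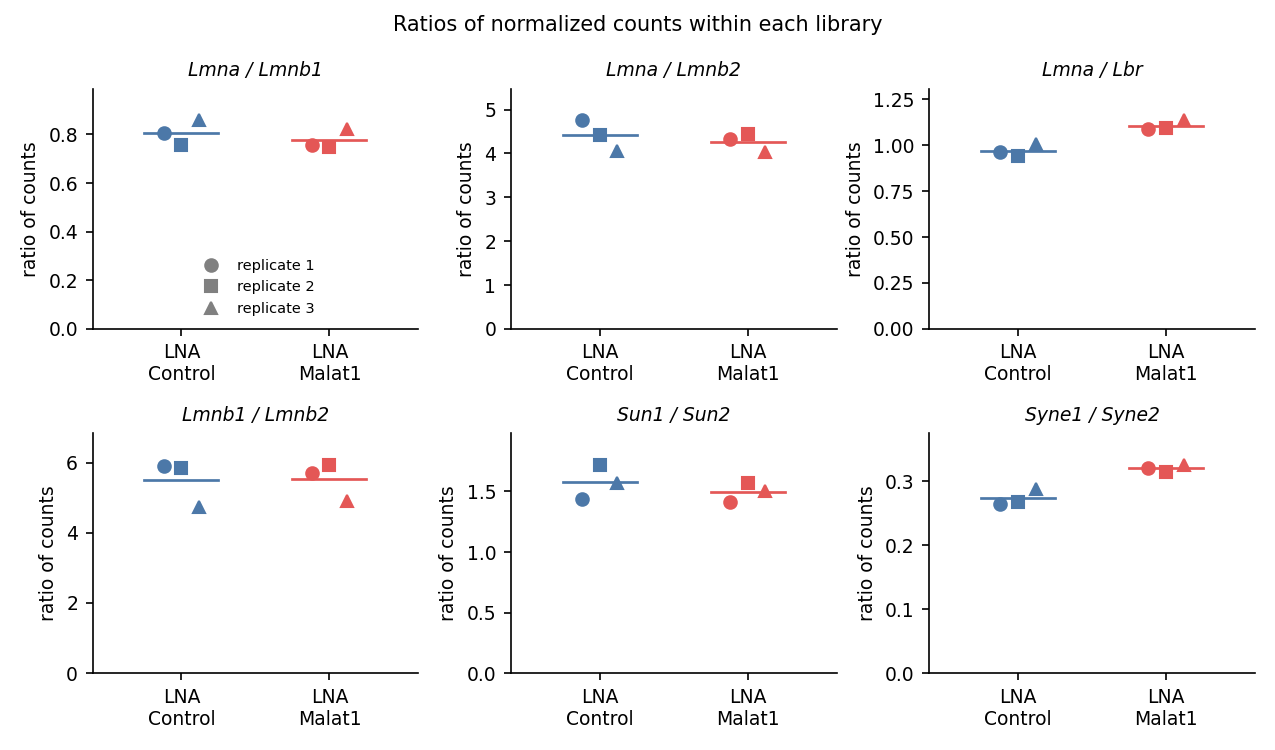
Ratios of normalized counts of 6 pairs of genes within each library, LNA Control against LNA Malat1, on axes that start at 0; circles, squares, and triangles are replicates 1, 2, and 3, and horizontal lines are the means of 3 libraries. Only Lmna to Lbr and Syne1 to Syne2 separate the groups, with LNA Malat1 above LNA Control in both.

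Sun1 and Sun2 encode the inner membrane side of the LINC bridge. Sun1, on the plus strand of chromosome 5 (mm10, 139200637 to 139249840), had normalized counts of 882, 875, and 775 in the LNA Control libraries and of 753, 754, and 829 in those of LNA Malat1. LNA Control replicate 3 and LNA Malat1 replicate 3 crossed, and the log2 fold change of -0.12 (95% confidence interval -0.25 to 0.02) did not pass (adjusted p = 0.197 by limma), although without LNA Control replicate 3 it was -0.18 and did (adjusted p = 0.0312 by limma). Sun2, on the minus strand of chromosome 15 (mm10, 79724070 to 79742536), had 612, 508, and 493 against 533, 480, and 550, with the groups intermixed. Its log2 fold change was -0.04 (95% confidence interval -0.22 to 0.13, adjusted p = 0.742 by limma), and its sign changed in 3 of the 15 alternative fits. The ratio of Sun1 to Sun2 lay between 1.44 and 1.72 in LNA Control and between 1.41 and 1.57 in LNA Malat1 (exact permutation p = 0.4).

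Emd, on the plus strand of the X chromosome (mm10, 74254687 to 74261548), encodes emerin, a LEM domain protein that binds lamins and nesprins. It was the only gene of the 10 with a positive log2 fold change, with normalized counts of 263, 212, and 231 in the LNA Control libraries and of 240, 253, and 222 in those of LNA Malat1. The groups overlapped, the log2 fold change was 0.02 (95% confidence interval -0.16 to 0.21, adjusted p = 0.874 by limma), and the sign changed in 2 of the 15 alternative fits. Of its exonic bases, 13.63% are shared with Gm14686 on the same strand.

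Levels of different genes compare only per length. Per kilobase of merged exons, LNA Control had a normalized count of 370 ± 24.8 for Lmnb1, 201 ± 3.52 for Tmpo, 191 ± 8.26 for Lbr, 177 ± 9.35 for Syne2, and 151 ± 2.66 for Lmna (SD, n = 3 each). Below these stood Sun1 (111 ± 7.88), Sun2 (99.2 ± 12.0), Emd (93.5 ± 10.2), Lmnb2 (46.7 ± 2.95), and Syne1 (32.0 ± 2.66). In this order the ranges of neighbours overlapped for Lbr and Syne2, for Sun1 and Sun2, and for Sun2 and Emd. The order depends on the length used. Per kilobase of the longest coding transcript, a length chosen after seeing the data, 7 of the 10 ranks changed and Tmpo, at 585, came first, above Lmnb1 at 385. Lmnb2 and Syne1 were lowest by either length.

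The 10 genes differ widely in genomic span, from 6.9 kb for Emd to 292.8 kb for Syne2 and 530.6 kb for Syne1. Among the genes averaging 194.2 or more, the median log2 fold change was -0.04 under 30 kb (3354 genes), -0.04 from 30 to under 100 kb (2529 genes), -0.10 from 100 to under 300 kb (869 genes), and -0.27 at 300 kb and over (153 genes). The share of genes lower with an adjusted p at or below 0.05 was 17.3%, 22.5%, 36.9%, and 61.4% in the same bins. Syne1, at -0.18, stood above the median of its bin, and Syne2, at -0.41, stood below the lower quartile of its bin, -0.27. Syne2 lies close to the upper edge of that bin, however. The quartiles of the next bin, 300 kb and over, were -0.52 and -0.1, and -0.41 falls between them. Lbr and Tmpo, of 27.7 and 33.7 kb, lay in bins with medians near 0. What part span has in the values of the nesprins was not tested.

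**Figure D4:**
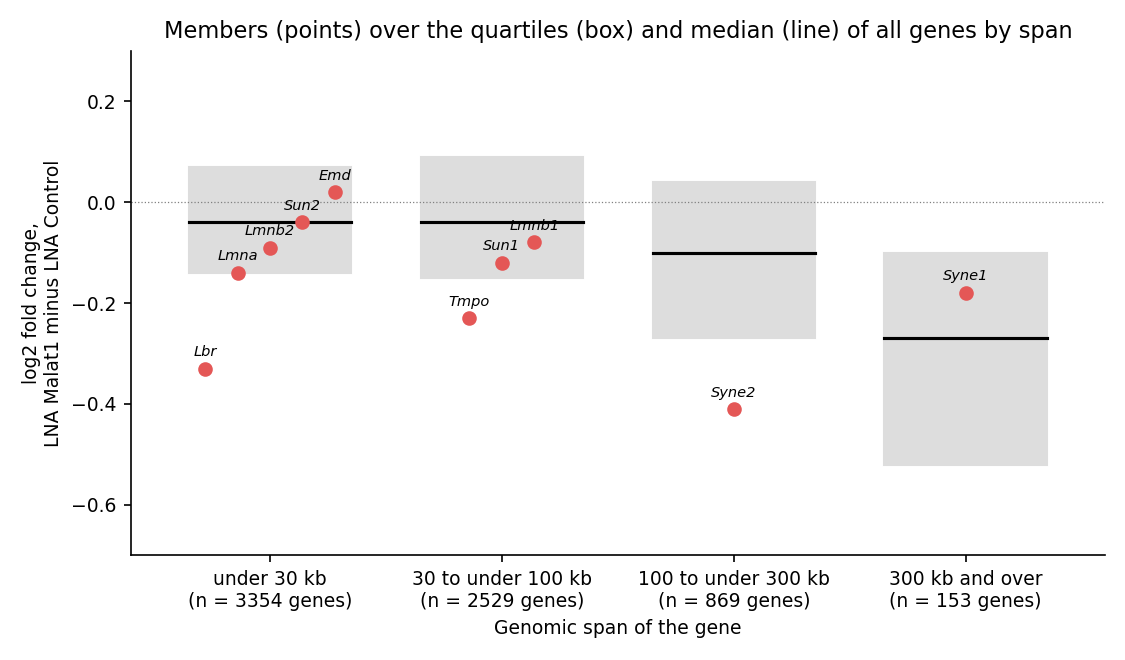
Log2 fold changes in LNA Malat1 against LNA Control in bins of genomic span, with the 10 genes as named points. Boxes are the quartiles and lines the medians of the genes in each bin, from the 6905 genes that averaged 194.2 or more. The medians fall from -0.04 in the shortest bin to -0.27 at 300 kb and over. Syne2, Lbr, Tmpo, Lmna, Sun1, Lmnb1, and Lmnb2 lie below the medians of their bins, and Emd and Syne1 lie above. Sun2, at -0.04, equals the median of its bin to 2 decimals.

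Genes that work with the lamina and the LINC complex were taken from 7 lists. For comparison, 14.0% of all genes tested were lower and 14.3% higher with an adjusted p at or below 0.05 by limma. Among genes averaging 194.2 or more, the shares were 22.6% and 10.2%. A negative log2 fold change was found in 47.2% of all genes tested and in 61.0% of genes in that range. Of 12 further inner nuclear membrane genes, 3 were higher and 0 lower with an adjusted p at or below 0.05 by limma, with a median log2 fold change of 0.09. The other 9 did not pass, and 3 of the 12 had a negative log2 fold change. Nemp1, a nuclear envelope protein that interacts with emerin, had normalized counts of 315, 281, and 320 in the LNA Control libraries and of 390, 380, and 372 in those of LNA Malat1 (log2 fold change 0.32, adjusted p = 0.00274 by limma). Tor1b, a torsin ATPase of the perinuclear space, was also higher (0.26, adjusted p = 0.00211 by limma), as was Lpin1, a phosphatidate phosphatase (0.22, adjusted p = 0.0127 by limma). Of 5 genes of lamin maturation, 1 was higher and 1 lower. Icmt, which methylates the C terminus of prenylated proteins, prelamin A among them, had normalized counts of 343, 331, and 322 in the LNA Control libraries and of 468, 478, and 477 in those of LNA Malat1. The groups were far apart beside their spread (log2 fold change 0.51, adjusted p = 2.26e-05 by limma). Fnta, a farnesyltransferase subunit, fell by 0.25 on the log2 scale (adjusted p = 0.00705 by limma). Zmpste24, Fntb, and Rce1 did not pass.

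Of 11 other LINC genes and cytoskeletal linkers tested, 1 was higher and 3 lower, with a median of 0.0. Spag4, which encodes the SUN domain protein SUN4, was the member of this list past a fold change of 1.5, with normalized counts of 9, 17, and 15 in the LNA Control libraries and of 36, 46, and 40 in those of LNA Malat1 (log2 fold change 1.54, adjusted p = 0.0007 by limma). Its counts were low beside those of Sun1 and Sun2. Syne3, which encodes nesprin-3, had 139, 114, and 136 against 109, 102, and 98 (log2 fold change -0.33, adjusted p = 0.0311 by limma), and lost the call in 8 of 15 alternative fits, among them those without LNA Control replicate 1 or 3 or any LNA Malat1 replicate, where the adjusted p reached 0.111. Bicd2, a dynein adaptor, and Macf1, a spectraplakin, were lower by less (-0.18 and -0.20, adjusted p = 0.036 and 0.0426 by limma) and lost it in 8 and 10 fits, both of them without LNA Control replicate 2 or any LNA Malat1 replicate (adjusted p up to 0.155 and 0.182).

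Among 6 genes of centrosomal proteins, several of which gather at the nuclear envelope in muscle cells, 2 were higher and 1 lower. Akap6, which in muscle cells is held at the nuclear envelope by nesprin-1, had normalized counts of 180, 150, and 207 in the LNA Control libraries and of 266, 297, and 297 in those of LNA Malat1 (log2 fold change 0.69, adjusted p = 0.000344 by limma). Without LNA Control replicate 2 its log2 fold change was 0.57, under a fold change of 1.5. Akap9 had 948, 1519, and 1954 against 2126, 2040, and 1986, where LNA Control replicate 1 stood far below the others (log2 fold change 0.54, adjusted p = 0.0417 by limma), and the call was lost in 6 of 15 fits, among them those without LNA Control replicate 2 or any LNA Malat1 replicate (adjusted p up to 0.144). Without LNA Control replicate 1 the log2 fold change of Akap9 was 0.25. Cdk5rap2, a centrosomal scaffold, had 1750, 1813, and 1683 against 1410, 1353, and 1355 and fell by 0.35 on the log2 scale (adjusted p = 0.000391 by limma).

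Of 13 chromatin tethers and genes of mitotic envelope assembly, 1 was lower and 0 higher, against 14.0% and 14.3% of all genes tested. A negative log2 fold change was found for 11 of them (median -0.08), against 47.2% of all genes tested. The lower gene was Cbx5, which encodes HP1 alpha, a partner of the lamin B receptor (-0.20, adjusted p = 0.0231 by limma), whose call was lost without LNA Control replicate 2 or any LNA Malat1 replicate (adjusted p up to 0.109). Single libraries also decided the calls of Lpin1 and Nup43 (adjusted p = 0.0683 and 0.0586 by limma without LNA Malat1 replicate 3). Of 28 nuclear pore genes tested, 4 were higher and 5 lower, with a median of -0.03. Rae1, an mRNA export factor, fell by 0.53 on the log2 scale (356, 327, and 299 against 219, 226, and 234, adjusted p = 0.000183 by limma). Nup62 and Nup43 were lower (-0.23 and -0.27, adjusted p = 0.00763 and 0.0116 by limma), and Aaas, which encodes the pore protein aladin, was higher (0.32, adjusted p = 0.000915 by limma). Nup54 and Nup93 (lower) and Nup214, Ranbp2, and Tpr (higher) also passed, but each of these calls was lost when LNA Malat1 replicates 1 and 3 were merged and without LNA Malat1 replicate 1 or 3. They were lost, too, without LNA Malat1 replicate 2 (Nup93, Ranbp2, Tpr), LNA Control replicate 1 (Nup93), or LNA Control replicate 2 (Nup54, Nup214, Tpr). With single libraries left out, the limma adjusted p reached 0.142 for Nup54, 0.11 for Nup93, 0.105 for Nup214, 0.0759 for Ranbp2, and 0.113 for Tpr. Under quantile normalization it was 0.129 for Nup54 and 0.114 for Nup93. In LNA Control replicate 1, Ranbp2 (1842) and Tpr (1618) stood well below the other LNA Control libraries, as Akap9 did. Of 15 proliferation genes, 6 were lower and 2 higher, with a median of -0.12, close to the -0.13 of the 10 lamina and LINC genes. Mcm5, Ccna2, Aurka, and Rrm2 were lower by 0.20 to 0.26 on the log2 scale, with adjusted p between 0.00442 and 0.0127 by limma. Without LNA Control replicate 2, Aurka and Rrm2 had an adjusted p of 0.0555 and 0.0599 by limma. Without LNA Malat1 replicate 3 it was 0.0539 for Aurka, and without LNA Malat1 replicate 1 it was 0.0646 for Rrm2. Ccnb1 and Cdk1 (lower) and Bub1 and Ttk (higher), the latter kinases of the mitotic checkpoint, passed as well, Bub1 with overlapping groups. All 4 calls were lost when LNA Malat1 replicates 1 and 3 were merged and without LNA Malat1 replicate 1 or 3. They were lost, too, without LNA Malat1 replicate 2 (Ccnb1, Bub1, Ttk), LNA Control replicate 1 (Bub1, Ttk), or LNA Control replicate 2 (Ccnb1, Cdk1, Bub1). With single libraries left out, the limma adjusted p reached 0.0904 for Ccnb1, 0.117 for Cdk1, 0.178 for Bub1, and 0.101 for Ttk, and under quantile normalization it was 0.0792 for Ccnb1 and 0.131 for Cdk1. Mki67, a marker of cycling cells, had a log2 fold change of 0.12 (adjusted p = 0.414 by limma). The summed level of the proliferation list overlapped between the groups, at 16034 to 17636 in LNA Control and 16067 to 16667 in LNA Malat1. The part of proliferation in the values of the 10 genes was not tested.

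**Figure D5:**
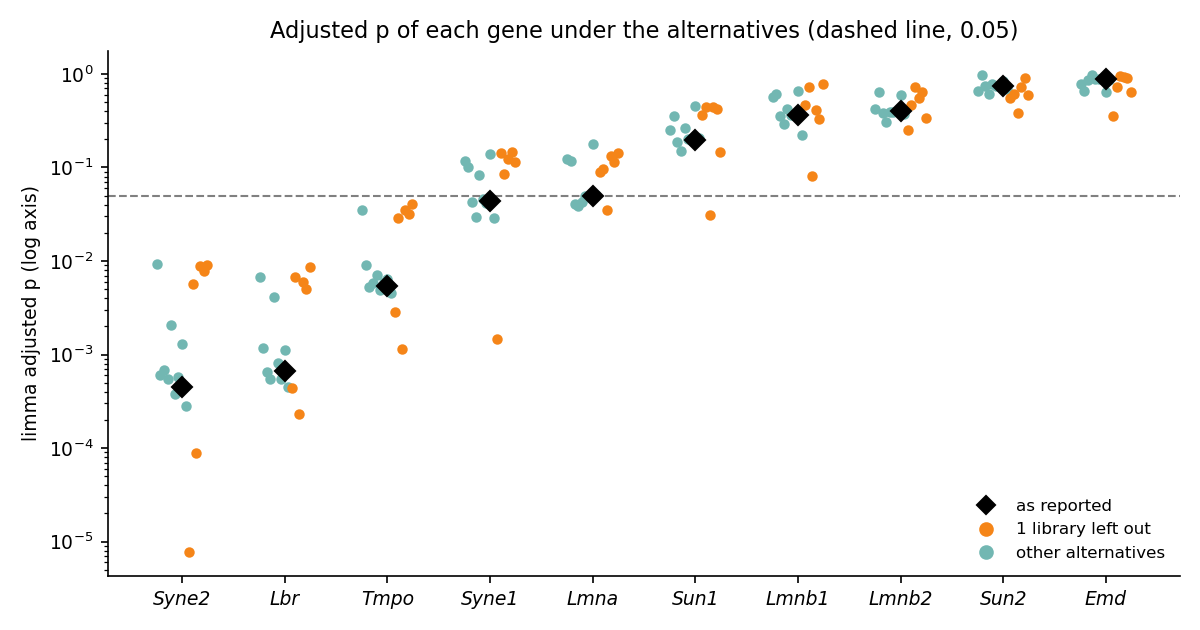
Limma adjusted p of the 10 genes, LNA Malat1 against LNA Control, under the fit reported and 15 alternative fits. The axis is logarithmic, and the dashed line marks 0.05. In the alternative fits the log2 fold change, which is not drawn, stayed between -0.46 and -0.35 for Syne2 and between -0.36 and -0.27 for Lbr. It stayed between -0.25 and -0.19 for Tmpo, whereas those of Sun2 and Emd fell on both sides of 0.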

How the data were processed

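RNA-seq was made from total RNA of HL-1 cells (SMARTer Stranded Total RNA kit). The authors used Trimmomatic 0.39 for trimming, STAR 2.7.7a for alignment (mm10, Ensembl annotation), and featureCounts 1.6.5 for reads touching exons, dropping reads on multiple genes or regions. The authors then used DESeq2 1.30.0. As deposited, each value is a score: a read count divided by a factor of its library and rounded to a whole number. Reads recovered from the rounding steps numbered 4511897 to 5593823 per library.

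Because raw counts were not used here, limma 3.58.1 (R 4.3.3) was fitted to log2(normalized count + 1) of the 15650 genes averaging 5 or more, with eBayes trend, a two-sided test, and Benjamini-Hochberg adjustment. Fold changes on this scale understate the change of low genes. A gene passed with an adjusted p at or below 0.05, and was called if its fold change also reached 1.5. Where a call is said to be lost, the gene no longer passed, whether or not it had reached that fold change. Ratios were tested by exact permutation over libraries (scipy 1.17.1). Replicates were compared by chi-square on recovered reads, which covers counting error only. The fit was tested on simulated data.

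The 10 genes and the lists were chosen with earlier results of these data known. Named list genes are those called, up to 4, and up to 4 more of the lowest adjusted p among those that passed. Mki67 and the markers named were chosen after their values were seen. Alternatives were other pseudocounts, filters, and scalings, the replicate number as a block, LNA Malat1 replicates 1 and 3 as 1 sample, and each library left out. Gene models are of GENCODE M21 (mm10), and promoter windows of RefSeq.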

Additional observations from a re-analysis of the deposited data

How the results depend on the processing

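Syne2, Lbr, and Tmpo kept their direction and passed the test in all 15 alternative fits, as no other gene of the 10 did. The number of the 10 genes that were lower past the adjusted p threshold of 0.05 was 5, and it was 3 with LNA Malat1 replicates 1 and 3 as 1 sample, with library totals set equal, and under quantile normalization, since Lmna and Syne1 no longer passed. With each library left out in turn it was 3 to 5. It was 3 without LNA Control replicate 2 or any LNA Malat1 replicate, 4 without LNA Control replicate 1, and 5, with Sun1 in place of Syne1, without LNA Control replicate 3. With the replicate number as a block it was 4, as Lmna had a limma adjusted p of 0.0513. Same-numbered libraries deviated together only weakly (correlations of 0.086, 0.182, and 0.083 over 10490 genes). Differently numbered libraries all stood lower, at -0.189 to 0.046. The labels do not say that the numbers pair the libraries, so the block was kept as an alternative fit. In the ratios the block left every difference as it was, with an exact permutation p of 0.25, the smallest for 3 pairs, for Syne1 to Syne2 and Lmna to Lbr. Sun2 was at 0.03 under quantile normalization and between -0.10 and 0.06 with each library left out, and Emd was between -0.05 and 0.10. When single libraries were left out, the log2 difference of Lmna to Lmnb2 ranged from -0.10 to 0.01, and that of Lmnb1 to Lmnb2 from -0.09 to 0.09. Over all genes, 457 were called lower and 1252 higher, against 718 and 748 under quantile normalization. No scaling moved the median of all genes by more than 0.04. The causes of these changes were not tested.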
